A study of Rattus norvegicus with 24 samples.

Results

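The 10 genes described here encode 7 matrix metalloproteinases (MMPs; Mmp2, Mmp3, Mmp8, Mmp9, Mmp12, Mmp13 and Mmp14) and 3 tissue inhibitors of metalloproteinases (TIMPs; Timp1, Timp2 and Timp3), chosen by name out of 18166 named genes. Each was read from the probe set that carries its symbol alone, and each had 1 such probe set. Bone around degradable PLGA plugs in the tibia of male Sprague-Dawley rats was collected with a trephine and measured on Affymetrix Rat Gene 2.0 ST arrays. The 4 groups of 6 arrays were bone around lithium carbonate plugs at day 28 (Li+, day 28), around sodium carbonate plugs at day 28 (Ctrl, day 28), around lithium carbonate plugs at day 7 (Li+, day 7) and around sodium carbonate plugs at day 7 (Ctrl, day 7). All sites therefore held PLGA and a carbonate salt, and bone without a plug was not analysed here. Each of the 12 rats gave 1 Li+ and 1 Ctrl array on the same day, whereas the days held different rats. Signals are on the log2 scale, on which a difference of 1 is a doubling.

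MMPs are zinc-dependent endopeptidases that are made as inactive proenzymes and cut collagens, gelatins, elastin, proteoglycans and other matrix proteins once their propeptide is removed. TIMPs bind the active site and block it, and Timp2 also takes part with the membrane-anchored Mmp14 in the activation of proMmp2 on the cell surface. In healing bone these enzymes are known from osteoclasts, macrophages, neutrophils, fibroblasts, osteoblasts and hypertrophic chondrocytes, so that a biopsy of bone, marrow and soft tissue holds several sources of each transcript. Transcript levels do not report how much enzyme was active.

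Mmp13, Mmp12, Mmp3 and Mmp8 lie close together on rat chromosome 8, within a run of 10 neighbouring Mmp genes in the RefSeq annotation of build GRCr8. Mmp2 is on chromosome 19, Mmp9 on chromosome 3, Mmp14 on chromosome 15, Timp1 on chromosome X, Timp2 on chromosome 10 and Timp3 on chromosome 7. RefSeq promoters (250 bases before to 50 after the start, build GRCr8) were matched for 7 of the 10 genes by gene ID, and those of the 4 chromosome 8 neighbours and of Timp3 are shown, since Mmp3, Mmp12 and Timp3 carried the results below and Mmp13 and Mmp8 belong to the same run as Mmp3 and Mmp12. Capitals in the Mmp promoters mark matches to the AP-1 motif TGANTCA and to TATAAA, and capitals in Timp3 mark matches to the GC box GGGCGG, each searched on both strands.
Mmp3 (chr8:12925031-12925330, plus strand): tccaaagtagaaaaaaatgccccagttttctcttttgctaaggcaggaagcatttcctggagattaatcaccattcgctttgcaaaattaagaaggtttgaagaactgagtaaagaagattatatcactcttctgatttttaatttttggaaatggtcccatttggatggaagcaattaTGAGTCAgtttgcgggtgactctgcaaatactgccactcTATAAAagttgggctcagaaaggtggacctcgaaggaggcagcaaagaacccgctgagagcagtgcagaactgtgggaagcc
Mmp12 (chr8:12866402-12866701, plus strand): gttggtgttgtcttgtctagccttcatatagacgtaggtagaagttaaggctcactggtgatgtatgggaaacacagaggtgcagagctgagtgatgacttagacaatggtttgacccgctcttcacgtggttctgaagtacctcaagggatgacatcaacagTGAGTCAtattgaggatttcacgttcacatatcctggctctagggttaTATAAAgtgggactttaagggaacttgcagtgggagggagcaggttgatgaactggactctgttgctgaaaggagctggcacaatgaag
Mmp13 (chr8:12782579-12782878, plus strand): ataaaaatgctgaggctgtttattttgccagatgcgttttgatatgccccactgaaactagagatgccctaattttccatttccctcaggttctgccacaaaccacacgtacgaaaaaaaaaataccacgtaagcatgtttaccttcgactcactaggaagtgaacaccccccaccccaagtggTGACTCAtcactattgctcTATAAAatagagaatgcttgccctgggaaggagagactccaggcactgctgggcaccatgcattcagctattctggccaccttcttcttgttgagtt
Mmp8 (chr8:13008640-13008939, plus strand): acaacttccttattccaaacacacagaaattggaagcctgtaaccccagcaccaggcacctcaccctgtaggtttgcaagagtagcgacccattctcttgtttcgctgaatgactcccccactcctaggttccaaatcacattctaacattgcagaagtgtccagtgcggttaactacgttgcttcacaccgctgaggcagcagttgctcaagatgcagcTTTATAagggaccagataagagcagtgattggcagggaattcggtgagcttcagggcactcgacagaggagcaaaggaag
Timp3 (chr7:19459509-19459808, minus strand): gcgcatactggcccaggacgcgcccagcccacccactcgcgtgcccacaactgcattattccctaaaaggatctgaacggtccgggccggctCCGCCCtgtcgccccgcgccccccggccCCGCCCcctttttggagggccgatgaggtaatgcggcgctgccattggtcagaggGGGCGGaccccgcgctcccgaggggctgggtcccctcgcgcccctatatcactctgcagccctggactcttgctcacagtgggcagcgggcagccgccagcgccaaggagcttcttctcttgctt

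The AP-1 motif was matched in 3 of the 7 promoters, against 7.33% of all 33469 promoters of the same length. Its first base stood at -71 in Mmp3, at -87 in Mmp12 and at -66 in Mmp13, counted back from the start, and the letters were absent from this window of Mmp8, Timp1, Timp2 and Timp3. TATAAA was matched in 4 of the 7 promoters (14.2% of all promoters), at -32 in Mmp3, -39 in Mmp12, -47 in Mmp13 and, on the other strand, -30 in Mmp8. The GC box was matched in the promoters of all 3 inhibitors and in none of the 4 Mmp promoters (33.1% of all promoters). The motifs do not overlap one another in the sequences shown, and binding of a factor was not measured.

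Mmp3 was the 1 member dimmer on average than the array-wide median of 7.31. Mean signals over the 24 arrays were 13.32 for Mmp9, 13.05 for Mmp13, 12.95 for Mmp8, 12.49 for Mmp12, 12.16 for Timp1, 11.92 for Timp2, 11.69 for Mmp2, 11.13 for Mmp14, 11.01 for Timp3 and 6.87 for Mmp3. These probe set signals are not set against each other, as probes differ in efficiency. The highest signal in the table was 14.16, and whether differences of Mmp8, Mmp9 and Mmp13 were compressed near the top of the scale was not tested. Mmp3 lay in the dim part of the scale, with 57.98% of probe sets above it.

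Arrays of a few rats stood apart and touch several of the values below. At day 28, both arrays of rat 21 (fibroblast marker score -0.64 with Li+ and -0.49 with Ctrl) and of rat 27 (-0.58 with Li+ and -0.72 with Ctrl) were lowest in fibroblast markers, where the score is the mean log2 deviation of 7 measured genes from their mean over all arrays. The other day 28 arrays had scores between -0.18 and 0.20. Fits without rats 21 and 27, given below, were chosen after seeing the data. Skeletal muscle genes were high on 3 arrays, with scores of 4.21 (Li+, rat 27), 4.60 (Ctrl, rat 23) and 2.63 (Ctrl, rat 29), and at most 0.41 on any other array. Osteoblast markers such as Bglap and Ibsp and the osteoclast marker Ctsk were well above the array median, so the labelled tissue was present.

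**Figure D1:**
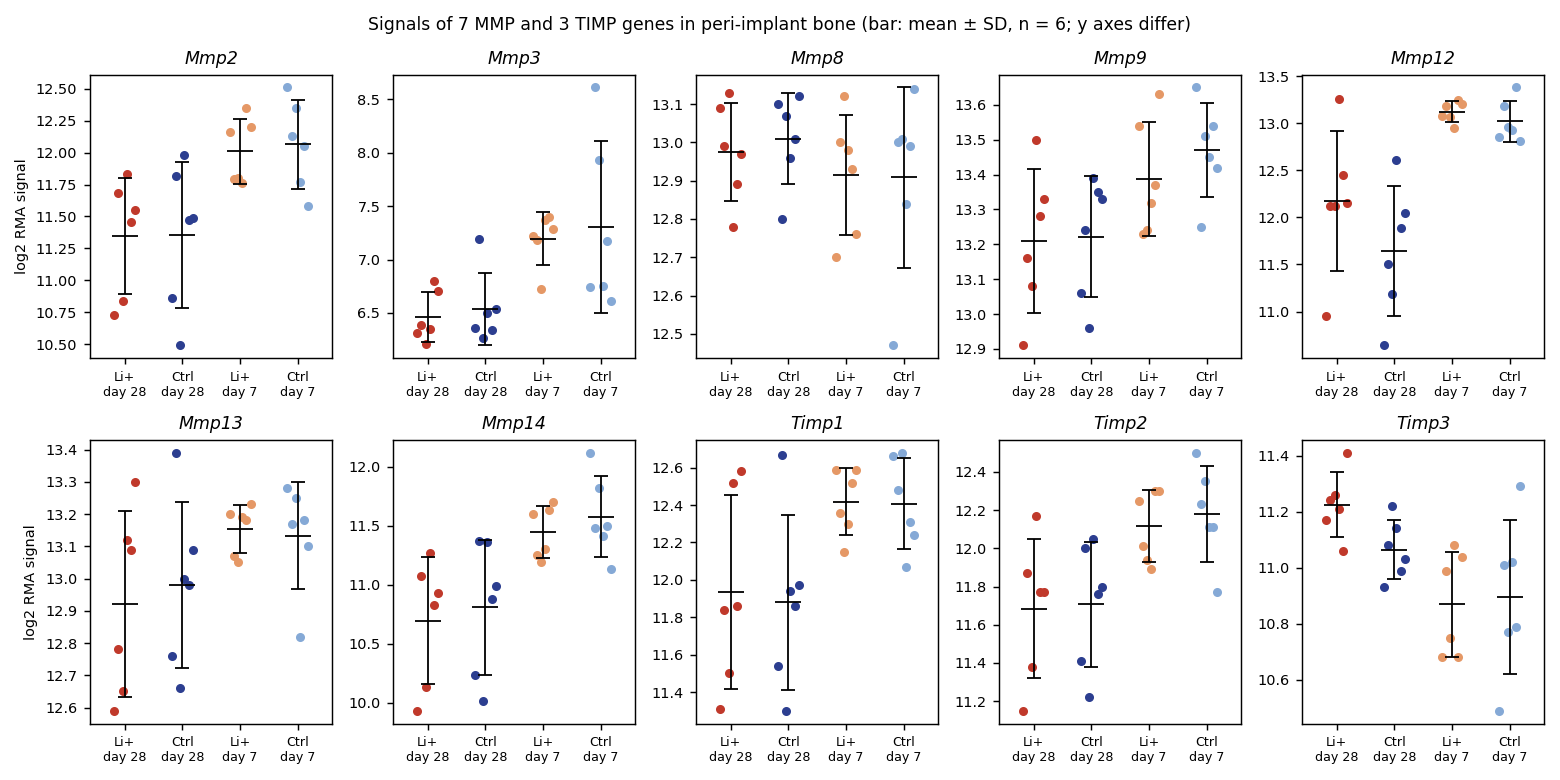
Log2 RMA signals of the 10 genes on each array (points, in order of rat number within a group), with mean and SD as black bars (n = 6 per group); each panel has its own y axis. Mmp12 spans 10.64 to 13.26 at day 28 and 12.81 to 13.38 at day 7, and Timp3 in Li+ sits higher at day 28 (median 11.22) than at day 7 (median 10.87).

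Over time, the stromelysin Mmp3, the macrophage elastase Mmp12, the gelatinase Mmp2, its activator Mmp14 and the inhibitors Timp1 and Timp2 had lower signals at day 28 than at day 7 around both plugs, and only Mmp3, in Li+, passed the adjusted threshold. Timp3 lay in the other direction, and the neutrophil collagenase Mmp8 and the collagenase Mmp13 differed little. In Li+, limma with Benjamini-Hochberg adjustment over 36495 probe sets called 1 of the 10 genes lower (0.162% of all probe sets) and 0 higher (0.118%). At an unadjusted limma p under 0.05, 6 genes were lower (7.38%) and 1 was higher (8.72%). In Ctrl, 0 genes passed after adjustment (0.0822% of all probe sets lower, 0.0137% higher), and 7 were lower at an unadjusted p (5.85%) and 0 higher (5.51%). The same 4 genes, Mmp2, Mmp3, Mmp12 and Mmp14, were lower by over 1.5-fold at an unadjusted p in Li+ (0.778% of all probe sets) and in Ctrl (0.792%). The median difference of the 10 genes was -0.46 in Li+ and -0.50 in Ctrl, while that of all probe sets was 0.02 in each. Fewer cells of a type and less RNA per cell cannot be told apart in such bulk samples.

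**Figure D2:**
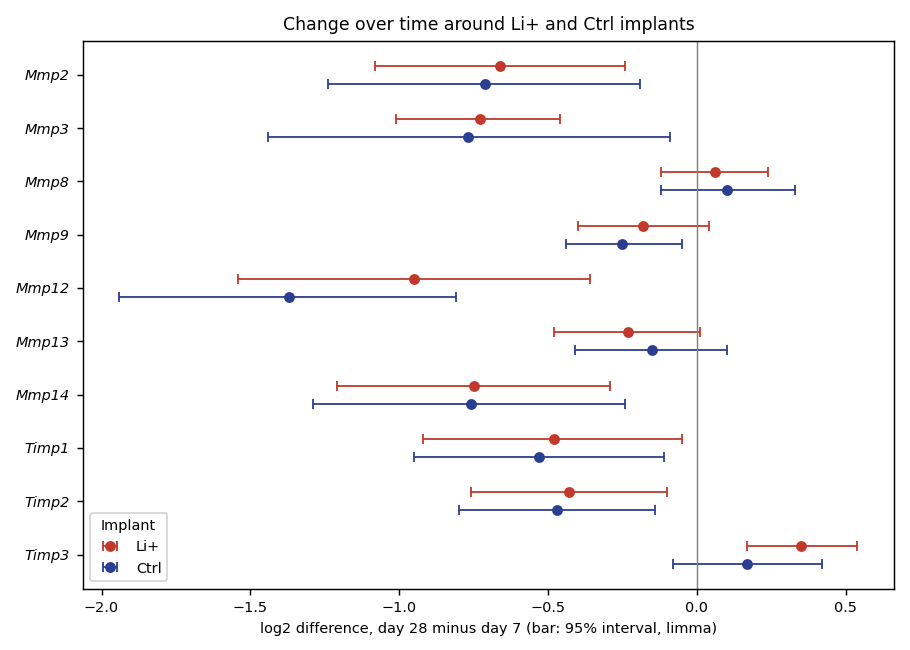
Log2 difference between day 28 and day 7 for each gene, with 95% intervals from limma, in Li+ (red, upper of each pair) and Ctrl (blue, lower of each pair); values left of 0 are lower at day 28. The intervals of Mmp2, Mmp3, Mmp12, Mmp14, Timp1 and Timp2 lie below 0 around both plugs, and Mmp12 reaches -1.37 in Ctrl.

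Mmp3, a stromelysin that cuts proteoglycans and activates other proMMPs, had signals of 6.21 to 6.80 (median 6.37) in Li+ at day 28 and 6.72 to 7.40 (median 7.25) in Li+ at day 7. The 2 groups met only at their edges, since rat 29 of day 28 (6.80) lay above rat 7 of day 7 (6.72). Mmp3 fell by 0.73 in Li+ (SE 0.13, limma adjusted p = 0.0463, exact permutation p = 0.00433, two-sided). In Ctrl the range was 6.27 to 7.19 (median 6.43) at day 28 and 6.61 to 8.61 (median 6.96) at day 7, a log2 difference of -0.77 (SE 0.31, limma adjusted p = 0.374). The day 7 Ctrl values were spread by rats 5 and 7, at 8.61 and 7.93. With both arrays of a rat averaged, the 6 rats of day 28 all lay below the 6 of day 7, as for Mmp12 and Mmp14 (3 of 10 genes, against 1.14% of all probe sets), and Mmp3 fell by 0.75 (SE 0.15, limma adjusted p = 0.0407), where 0.595% of all probe sets were called lower and 0.37% higher. The call in Li+ held in 3 of the 12 fits that left out 1 rat, those without rat 7, 28 or 30, and the averaged call in 4, those without rat 5, 10, 23 or 28; the difference itself stayed between -0.83 and -0.62 in all 24 of these fits. Without rats 21 and 27 the adjusted p was 0.179 in Li+ and 0.204 on average.

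Mmp12, the elastase of macrophages, had the widest range of the 10 genes. Its signal was 10.95 to 13.26 (median 12.14) in Li+ at day 28 and 12.95 to 13.25 (median 13.13) in Li+ at day 7. In Ctrl it was 10.64 to 12.61 (median 11.69) at day 28 and 12.81 to 13.38 (median 12.95) at day 7. The days overlapped in Li+ only through rat 28, and they did not overlap in Ctrl (0.674% of all probe sets were lower without overlap). The log2 difference was -0.95 in Li+ (SE 0.27, limma adjusted p = 0.126, exact permutation p = 0.0152) and -1.37 in Ctrl (SE 0.26, limma adjusted p = 0.0746, exact permutation p = 0.00217, the smallest that 6 against 6 can give). Averaged per rat, it was -1.16 (SE 0.26, limma adjusted p = 0.0535), from -1.37 without rat 28 to -0.94 without rat 21. Without rat 28 the adjusted p of Mmp12 was 0.0301 in Li+, 0.0269 in Ctrl and 0.00858 on average. Of all 36495 probe sets, 1019 were then called in Li+, 58 in Ctrl and 1013 on average, against 102, 35 and 352 with all rats. Without rats 21 and 27 the difference of Mmp12 was -0.63 in Li+ and -1.01 in Ctrl. The spread also differed between the days, with an SD of 0.74 in Li+ and 0.69 in Ctrl at day 28, and of 0.11 in Li+ and 0.22 in Ctrl at day 7.

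Mmp2 (gelatinase A) and Mmp14 (the membrane-type MMP that activates it) had almost the same pattern over the arrays. Mmp14 had signals of 9.93 to 11.27 (median 10.88) in Li+ at day 28 and 11.19 to 11.70 (median 11.45) in Li+ at day 7. In Ctrl they were 10.01 to 11.37 (median 10.94) at day 28 and 11.13 to 12.12 (median 11.49) at day 7. The lowest 4 of the 24 values came from rats 21 and 27, and the remaining day 28 arrays lay between 10.83 and 11.37. The log2 difference of Mmp14 was -0.75 in Li+ (SE 0.21, limma adjusted p = 0.123) and -0.76 in Ctrl (SE 0.24, limma adjusted p = 0.248). Mmp2 differed by -0.66 in Li+ (SE 0.19, limma adjusted p = 0.128) and by -0.71 in Ctrl (SE 0.24, limma adjusted p = 0.283), with signals of 10.49 to 11.98 over both plugs at day 28 and 11.58 to 12.51 at day 7. Without rats 21 and 27, Mmp14 differed by -0.42 in each plug and Mmp2 by -0.38 in Li+ and -0.37 in Ctrl. Without rat 28 the limma adjusted p of Mmp14 was 0.048 in Li+, and averaged per rat it was 0.0432 for Mmp14, 0.048 for Mmp2 and 0.0414 for Timp2. Calls over all 36495 probe sets then rose as well, from 102 to 1019 in Li+ and from 352 to 1013 on average. Mmp9 (gelatinase B), abundant in osteoclasts and in neutrophil granules, differed by -0.18 in Li+ (SE 0.10, limma adjusted p = 0.413) and -0.25 in Ctrl (SE 0.091, limma adjusted p = 0.316), within a span of 12.91 to 13.65 over all arrays. Without rats 21 and 27 these were -0.07 in Li+ and -0.14 in Ctrl.

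The collagenases had intervals that included 0 around both plugs. Mmp8, which neutrophil precursors store in granules, had signals of 12.78 to 13.13 in Li+ and 12.80 to 13.12 in Ctrl at day 28, and of 12.70 to 13.12 in Li+ and 12.47 to 13.14 in Ctrl at day 7. Its log2 difference over time was 0.06 in Li+ (95% interval -0.12 to 0.24) and 0.10 in Ctrl (-0.12 to 0.33). Mmp13, the collagenase of hypertrophic cartilage and osteoblasts, differed by -0.23 in Li+ (95% interval -0.48 to 0.01) and by -0.15 in Ctrl (-0.41 to 0.10). Without rats 21 and 27 these were -0.08 in Li+ and -0.02 in Ctrl. Its 6 Li+ arrays at day 7 lay within 0.18 of each other, between 13.05 and 13.23, whereas the 6 at day 28 spread over 0.70, between 12.59 and 13.30.

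Among the inhibitors, Timp1 and Timp2 were lower at day 28 and Timp3, which binds to the matrix and also inhibits ADAM proteinases, was higher. Timp1, a secreted inhibitor with Mmp9 among its partners, differed by -0.48 in Li+ (SE 0.20, limma adjusted p = 0.261) and -0.53 in Ctrl (SE 0.19, limma adjusted p = 0.32). Timp2 differed by -0.43 in Li+ (SE 0.15, limma adjusted p = 0.19) and -0.47 in Ctrl (SE 0.15, limma adjusted p = 0.261). Without rats 21 and 27, Timp1 differed by -0.22 in Li+ and -0.30 in Ctrl, and Timp2 by -0.22 in Li+ and -0.28 in Ctrl. Timp3 had signals of 11.06 to 11.41 (median 11.22) in Li+ at day 28 and 10.68 to 11.08 (median 10.87) in Li+ at day 7. In Ctrl they were 10.93 to 11.22 (median 11.06) at day 28 and 10.49 to 11.29 (median 10.90) at day 7. The days overlapped in Li+ only through rat 29 at day 28 (11.06) and rat 10 at day 7 (11.08). The log2 difference of Timp3 was 0.35 in Li+ (SE 0.087, limma adjusted p = 0.0956, exact permutation p = 0.00433) and 0.17 in Ctrl (SE 0.12, limma adjusted p = 0.61, exact permutation p = 0.193). Its limma adjusted p in Li+ was 0.0465 when only probe sets above the median signal were tested. That setting called 488 of 18247 probe sets, against 102 of 36495 without it.

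Between plugs at day 28, Mmp12 and Timp3 were higher at the Li+ site than at the Ctrl site in each of the 6 rats, and neither passed the threshold after adjustment. With the rat as a block, limma called 0 of the 10 genes at an adjusted p (0% of all probe sets in either direction). At an unadjusted p under 0.05, 2 genes were higher in Li+ (2.22% of all probe sets) and 0 were lower (2.1%). Over all probe sets, 1.59% were higher with Li+ in 6 of 6 rats. The paired test that the methods describe also gave 0 genes after adjustment and the same 2 counts before it.

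Mmp12 read 10.95 in Li+ and 10.64 in Ctrl in rat 21, 12.12 in Li+ and 11.50 in Ctrl in rat 23, and 12.12 in Li+ and 11.19 in Ctrl in rat 27. It read 13.26 in Li+ and 12.61 in Ctrl in rat 28, 12.45 in Li+ and 11.89 in Ctrl in rat 29, and 12.15 in Li+ and 12.05 in Ctrl in rat 30. Rat 21 was lowest and rat 28 highest at both sites, and the gap within a rat ran from 0.11 (rat 30) to 0.93 (rat 27), while the rats themselves spanned 2.31 in Li+ and 1.97 in Ctrl. The mean difference was 0.53, a 1.44-fold higher level in Li+ (SE 0.10, 95% interval 0.29 to 0.77, limma unadjusted p = 0.001, adjusted p = 0.999; exact sign-flip permutation p = 0.0313, the smallest 6 pairs allow). Without 1 rat it ranged between 0.45 (without rat 27) and 0.61 (without rat 30). In the 3 rats with no array high in skeletal muscle genes, it was 0.35 (limma unadjusted p = 0.0387). Markers of cells known for Mmp12 stood as follows at day 28: 7 of 9 macrophage markers were higher and 2 lower in Li+ (median difference 0.07), with none past an unadjusted p of 0.05, and the macrophage score ran from -0.22 to 0.03 in Li+ and from -0.29 to 0.00 in Ctrl. Of 4 measured osteoclast markers, 1 was higher and 3 were lower in Li+ (median difference -0.08), with scores of -1.09 to 0.40 in Li+ and -0.76 to 0.09 in Ctrl. The part of these cells in the Mmp12 difference was not tested.

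Timp3 read 11.17 in Li+ and 10.93 in Ctrl in rat 21, 11.24 in Li+ and 11.08 in Ctrl in rat 23, and 11.26 in Li+ and 11.22 in Ctrl in rat 27. It read 11.21 in Li+ and 11.14 in Ctrl in rat 28, 11.06 in Li+ and 10.99 in Ctrl in rat 29, and 11.41 in Li+ and 11.03 in Ctrl in rat 30. The gap was largest in rats 30 and 21 (0.37 and 0.24) and at most 0.16 in the other rats. The mean difference was 0.16, or 1.12-fold (SE 0.058, 95% interval 0.02 to 0.29, limma unadjusted p = 0.0267, adjusted p = 0.999; exact sign-flip permutation p = 0.0313), between 0.12 (without rat 30) and 0.18 (without rat 27). Its unadjusted p was 0.0762 without rats 21 and 27.

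**Figure D3:**
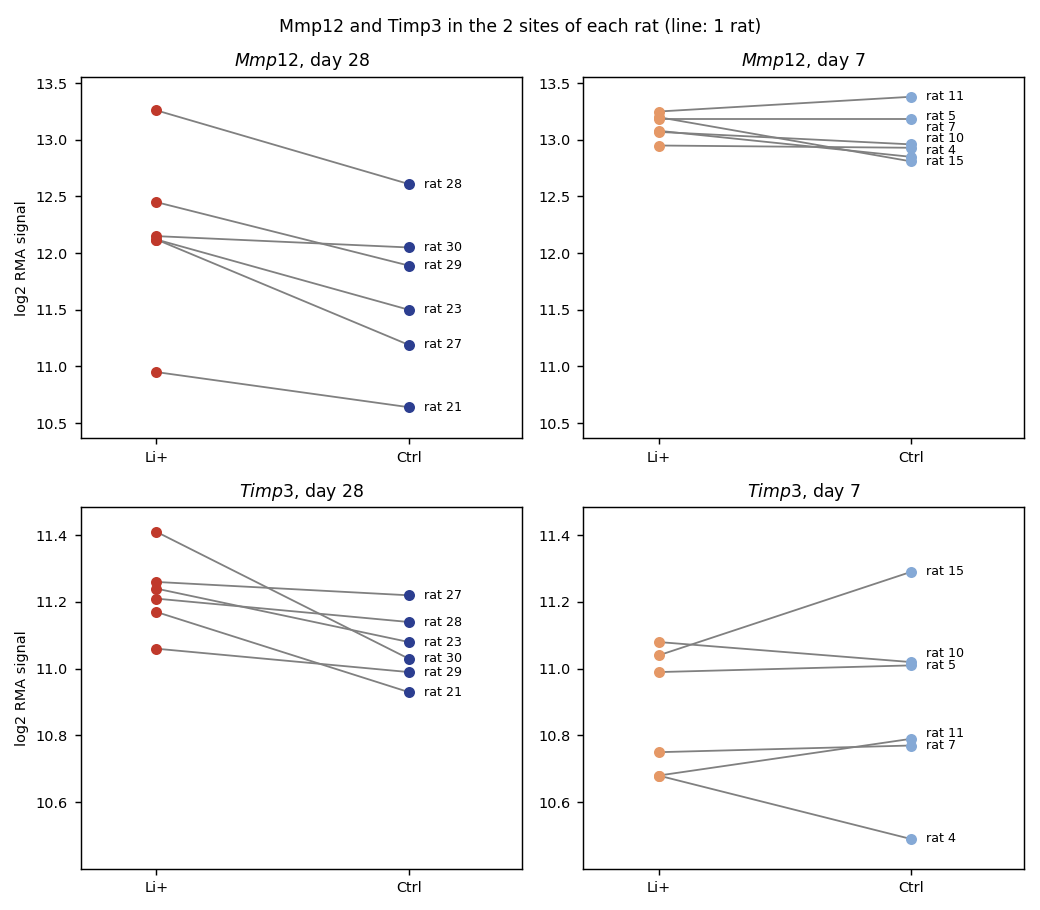
Log2 RMA signals of Mmp12 (top) and Timp3 (bottom) at the Li+ and Ctrl sites of each rat, at day 28 (left) and day 7 (right); a line joins the sites of 1 rat, and the panels of a gene share a y axis. At day 28 every line slopes down towards Ctrl in both genes (6 of 6 rats), whereas at day 7 Mmp12 was higher in Li+ in 5 of 6 rats and Timp3 in 2 of 6.

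The other 8 genes lay between -0.11 (Mmp14) and 0.05 (Timp1) at day 28. The 95% interval of Mmp14 ran from -0.27 to 0.04, with a lower signal in Li+ in 5 of 6 rats. Mmp2 (-0.18 to 0.17), Mmp9 (-0.14 to 0.11), Timp2 (-0.17 to 0.13) and Mmp8 (-0.18 to 0.11) had intervals within 0.2 of 0. Timp1, Mmp3 and Mmp13 varied more from rat to rat, and rat 23 gave the lowest value in each (-0.83, -0.80 and -0.61); its Ctrl array was one of those high in skeletal muscle genes.

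At day 7, limma called 0 of the 10 genes, either after adjustment (0% of all probe sets higher, 0.00274% lower) or at an unadjusted p under 0.05 (1.99% higher, 1.64% lower). The paired test of the methods called 0 as well. The differences lay between -0.13 (Mmp14, 95% interval -0.47 to 0.21) and 0.10 (Mmp12, 95% interval -0.07 to 0.28). Mmp3 varied most between the sites of a rat, from -1.43 in rat 5 to 0.68 in rat 15, which left an interval of -0.80 to 0.59. Mmp8 (-0.19 to 0.20), Mmp9 (-0.25 to 0.09) and Timp3 (-0.19 to 0.14) had narrow intervals around 0. Rat 15 stood highest in Li+ against Ctrl in Mmp2, Mmp14, Timp2, Mmp9, Timp1, Mmp12 and Mmp3 (0.62, 0.57, 0.53, 0.21, 0.34, 0.39 and 0.68). It stood lowest in Mmp8 (-0.38) and Timp3 (-0.25). The fibroblast score of that rat was 0.33 at its Li+ site and -0.11 at its Ctrl site, and its neutrophil score was -0.29 at its Li+ site and 0.17 at its Ctrl site.

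**Figure D4:**
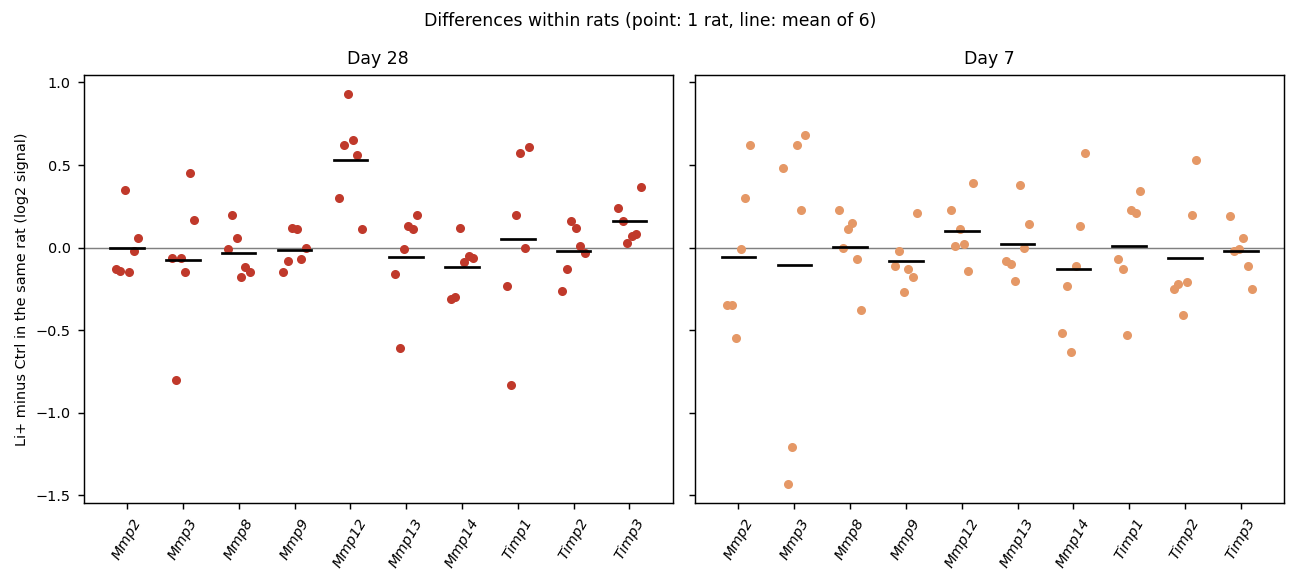
Differences between the Li+ and the Ctrl site of each rat (log2 signal, Li+ minus Ctrl; points, in order of rat number) for the 10 genes at day 28 (left) and day 7 (right), with the mean of 6 rats as a line. At day 28 all points of Mmp12 (0.11 to 0.93) and Timp3 (0.03 to 0.37) are above 0; Mmp3 has the widest spread at day 7 (-1.43 to 0.68).

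An interaction term asked if Li+ and Ctrl sites changed differently with time. After adjustment 0 genes passed (0% of all probe sets), and at an unadjusted p under 0.05, 1 gene was higher (1.81% of all probe sets) and 0 were lower (1.81%). That gene was Mmp12, whose difference over time was 0.42 less negative in Li+ than in Ctrl (SE 0.13, 95% interval 0.14 to 0.71, limma unadjusted p = 0.00687, adjusted p = 0.9995, exact permutation p = 0.0173). It was 0.25 without rats 23, 27 and 29 (limma unadjusted p = 0.118), and 0.34 to 0.51 when 1 rat was left out. Rats 23, 27 and 29 each had 1 array high in skeletal muscle genes, and both arrays of each were left out. Timp3 gave 0.18 (SE 0.088, 95% interval -0.01 to 0.37, limma unadjusted p = 0.0572, adjusted p = 0.9995, exact permutation p = 0.0433). The other 8 genes lay between -0.08 and 0.07.

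The genes varied together within groups to very different degrees. Over the deviations of the 24 arrays from their group means, which come from 12 rats and 1 normalization, Pearson's r was 0.98 between Mmp2 and Mmp14, 0.97 between Mmp14 and Timp2 and 0.97 between Mmp2 and Timp2, the components of the proMmp2 activation complex. Mmp13 and Timp1 had an r of 0.93. Mmp8 had a negative r with most of the others, from -0.68 for Timp2, -0.67 for Mmp14 and -0.64 for Mmp9 to -0.24 for Mmp12, whereas r was -0.02 with Mmp3 and 0.43 with Timp3. The median over the 45 pairs was 0.45.

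The genes nearest to each member, out of 11124 named genes brighter than the array median, differed by member. For Mmp8 they were Fpr1 (r = 0.98 over the 24 arrays), a formyl peptide receptor of phagocytes, Chi3l1 (0.94) and Pygl (0.93). For Mmp9 they were Siglec15 (0.96), a receptor of the osteoclast lineage, Ndrg4 (0.95) and Adcy3 (0.95). For Mmp12 they were Tm4sf19, Lgals3 (galectin-3, abundant in macrophages) and Rab7b (0.95 each). For Mmp13 they were Timp1 (0.93), the heparan sulfatase Sulf1 (0.92) and the zinc transporter Slc39a14 (0.90), which was also nearest to Timp1 (0.94). Mmp2, Mmp14 and Timp2 were nearest to one another (0.98). Next came Ppic for Mmp2 (0.98), Htra1 for Mmp14 (0.98) and the fibroblast marker Col6a2 for Timp2 (0.97), so such values were not particular to these members. No gene came as close to Mmp3 (Ctsc, 0.81) or Timp3 (Eme1, 0.81).

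Against the marker scores, Mmp2, Timp2 and Mmp14 followed the fibroblast score (r = 0.97, 0.96 and 0.95 over 24 arrays, and 0.95, 0.94 and 0.93 within groups). Their r was also high with the osteoblast score (0.90, 0.87 and 0.89, and 0.89, 0.85 and 0.90 within groups). With the osteoclast score it was 0.86, 0.89 and 0.87 (0.78, 0.82 and 0.78 within groups). Mmp9 had an r of 0.87 with both the osteoclast and the osteoblast score (0.82 and 0.86 within groups) and of 0.86 with the fibroblast score (0.80 within groups). With the neutrophil score the r of Mmp9 was -0.65 (-0.60 within groups). For Mmp12, r was 0.85 with the osteoclast score (0.83 within groups), 0.77 with the fibroblast score (0.61), 0.74 with the macrophage score (0.40), 0.68 with the cartilage score (0.59) and 0.64 with the osteoblast score (0.56). Mmp8 had an r of 0.81 with the neutrophil score (0.82 within groups). Timp3 had an r of 0.67 with the erythroid score (0.58 within groups), 0.62 with the neutrophil score (0.55), -0.65 with the endothelial score (-0.59) and -0.65 with the fibroblast score (-0.45). The scores moved over time as well. All 7 fibroblast markers measured were lower at day 28 (6 at an unadjusted limma p in each plug, 0 after adjustment), with scores of -0.64 to 0.20 in Li+ and -0.72 to 0.03 in Ctrl at day 28, and of -0.01 to 0.47 in Li+ and -0.13 to 0.66 in Ctrl at day 7. All 4 osteoclast markers measured were lower (3 at an unadjusted p in each plug), with scores of -1.09 to 0.40 in Li+ and -0.76 to 0.09 in Ctrl at day 28, and of -0.04 to 0.54 in Li+ and -0.02 to 0.65 in Ctrl at day 7. Of 10 neutrophil markers 9 were higher at day 28, 3 of them at an unadjusted p in Li+ and 0 in Ctrl, and Ltf was below the array median. Over all probe sets, 56.1% were higher in Li+ and 56.3% in Ctrl without a test. At an unadjusted p, 7.38% were lower and 8.72% higher in Li+, and 5.85% were lower and 5.51% higher in Ctrl. The part of these cells in the lower signals of Mmp2, Mmp14, Timp2 and Mmp12 was not tested.

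**Figure D5:**
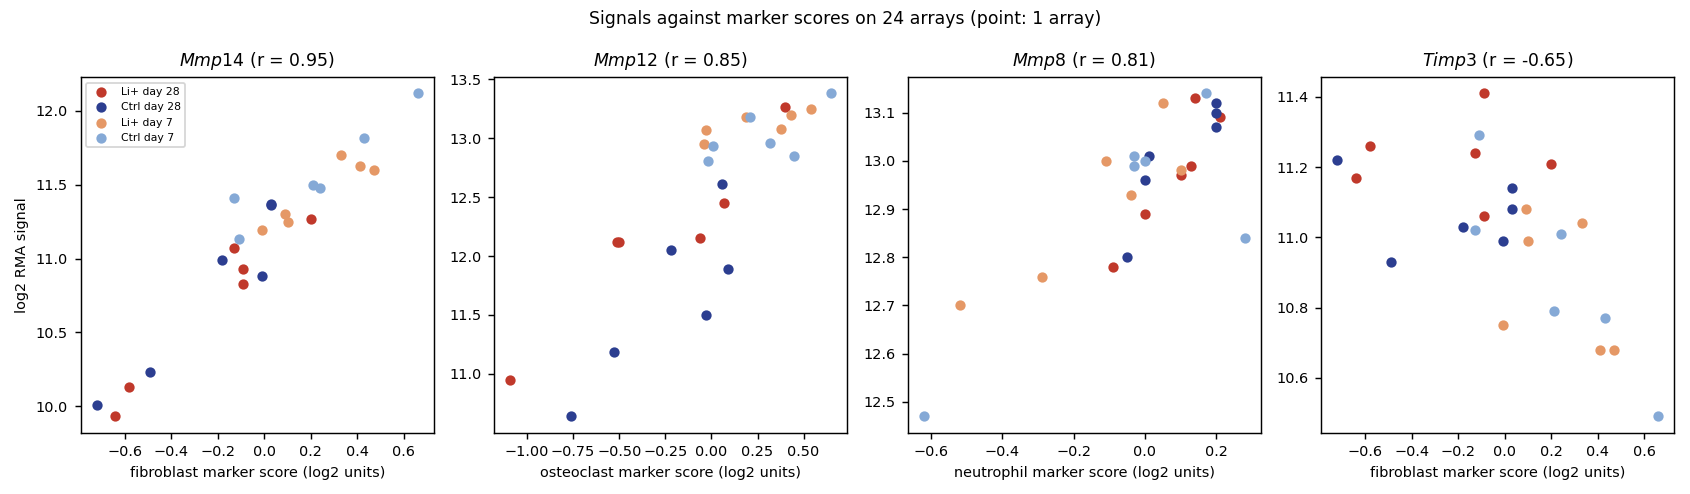
Log2 RMA signals of Mmp14, Mmp12, Mmp8 and Timp3 on the 24 arrays against the score of a marker list (mean log2 deviation of its genes from their mean over all arrays); colours give the group, r is Pearson's r. Mmp14 rises with the fibroblast score (0.95), Mmp12 with the osteoclast score (0.85) and Mmp8 with the neutrophil score (0.81). Timp3 falls with the fibroblast score (-0.65 over 24 arrays, -0.45 within groups).

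Other genes of the same system were read over time with both arrays of a rat averaged. Of 14 measured genes among the other MMPs and Timp4, 5 were higher and 9 lower, and 2 passed an unadjusted limma p, both lower (median -0.03). Mmp19 fell by 0.58 (SE 0.12, limma adjusted p = 0.0407), and Mmp23 and Mmp16 differed by -0.49 and -0.51 (limma adjusted p = 0.167 and 0.295). Of 17 measured genes that activate or restrain MMPs, 9 were lower and 1 higher at an unadjusted p (median -0.25). A2m, the broad proteinase scavenger alpha-2-macroglobulin, fell by 1.93 in Li+ (SE 0.24, limma adjusted p = 0.0141), fell by 1.57 in Ctrl (SE 0.19, limma adjusted p = 0.0203) and fell by 1.75 on average (SE 0.19, limma adjusted p = 0.0041). Plat, tissue plasminogen activator, fell by 0.85 on average (SE 0.16, limma adjusted p = 0.0327), and Thbs2, a matricellular protein that clears Mmp2 through Lrp1, and Bsg, the MMP inducer basigin, differed by -1.42 and -0.25 (limma adjusted p = 0.0555 and 0.0744).

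Of 15 measured MMP substrates of bone and cartilage, 9 were lower and 1 higher at an unadjusted p (median -0.27). Fibronectin, Fn1, fell by 0.32 (SE 0.056, limma adjusted p = 0.03) and the cartilage proteoglycan Acan fell by 1.41 (SE 0.27, limma adjusted p = 0.0378), while the collagen genes Col4a1 and Col3a1 differed by -0.49 and -0.74 (limma adjusted p = 0.0851 and 0.0897). Of 15 measured inducers, 6 were lower and 1 higher at an unadjusted p (median -0.21). The AP-1 subunit gene Fosl1 fell by 0.37 (SE 0.074, limma adjusted p = 0.0424), Junb, another AP-1 subunit, and Ets2 differed by -0.39 and -0.20 (limma adjusted p = 0.096 and 0.105), and Ets1 differed by 0.20 (limma adjusted p = 0.0596). The share of all probe sets at an unadjusted p was 7.87% lower and 9.24% higher in this averaged comparison, in which 7 members were lower and 1 higher. Between plugs at day 28, 0 genes of these 4 lists passed an unadjusted limma p of 0.05, and 0 passed after adjustment.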

How the data were processed

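Expression was measured in 24 arrays of peri-implant bone, 6 per group. The submitters' processing notes name RMA and Affymetrix Expression Console 1.1.2: the authors background-corrected, quantile-normalized and summarized the arrays, and deposited 1 table of log2 signals per probe set. Arrays give no read depth, so their number limits the precision. Genes were named from the platform table. The 190 control probe sets were left out, and 36495 were tested without a filter on signal, of which 18511 carry a single symbol.

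Li+ and Ctrl were compared in limma 3.58.1 (R 4.3.3; lmFit, eBayes) with the rat as a fixed block, as in the paired test of the methods, and the days without a block. Benjamini-Hochberg adjustment ran over all probe sets at a threshold of 0.05. The averaged comparison used the mean of a rat's 2 arrays, and the interaction used all arrays with the rat as a block. Exact permutation tests were two-sided and unadjusted. The pairing comes from the labels, which name the rat. Deviations from group means correlated within rats (median r 0.28, over 0.1 in 11 of 12 pairs) more than between rats of a day (median -0.13). The value between rats is pulled negative by construction, because deviations within a group cancel out. The main limma fits and the methods' t-test were tested on simulated data. The genes, lists and tests were chosen with earlier results of these data known. Members are named throughout, and of each further list up to 4 genes with the smallest p. Alternatives were the methods' t-test, array centring, restricted probe sets, other blocks and left-out arrays or rats.

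The marker lists were osteoblast, osteoclast, macrophage, neutrophil, fibroblast, cartilage, endothelial, skeletal muscle, erythroid and B cell genes.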

Additional observations from a re-analysis of the deposited data

Results flagged for a closer look

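Mmp3 read 7.19 on the Ctrl array of rat 23 at day 28, far above the other 5 arrays of that group, and 6.72 on the Li+ array of rat 7 at day 7, far below the other 5 of its group. These were 2 of 40 gene and group combinations whose extreme array stood apart by Dixon's ratio, a criterion that chance meets in about 1 of 20.

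The change of Mmp12 over time differed by 0.42 between Li+ and Ctrl in the interaction test (limma unadjusted p = 0.00687, adjusted p = 0.9995), where 1.81% of all probe sets were higher at an unadjusted p under 0.05.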

How the results depend on the processing

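Over time, the difference of Mmp8 in Li+ was -0.01 without rats 21 and 27 (a setting chosen after seeing the data), against 0.06 with all rats, and 0 of 360 differences of the 10 genes over time (Li+, Ctrl and averaged) changed sign when 1 rat was left out. The small differences between plugs were less firm: 42 of 240 differences between plugs or between time courses changed sign without 1 rat, none of them of Mmp9, Mmp12 and Mmp14 at day 7, Mmp8, Mmp12, Mmp14 and Timp3 at day 28, or Mmp9, Mmp12 and Timp3 in the interaction. At day 7 they then lay between -0.19 and 0.04 for Mmp2, -0.26 and 0.16 for Mmp3, -0.04 and 0.08 for Mmp8, -0.05 and 0.07 for Mmp13, -0.06 and 0.12 for Timp1, -0.18 and 0.01 for Timp2, and -0.07 and 0.02 for Timp3. At day 28 they lay between -0.08 and 0.02 for Mmp2, -0.18 and 0.07 for Mmp3, -0.04 and 0.01 for Mmp9, -0.11 and 0.05 for Mmp13, -0.06 and 0.23 for Timp1, and -0.06 and 0.02 for Timp2. The interaction then lay between -0.05 and 0.19 for Mmp2, -0.23 and 0.19 for Mmp3, -0.12 and 0.00 for Mmp8, -0.13 and 0.03 for Mmp13, -0.08 and 0.16 for Mmp14, -0.07 and 0.22 for Timp1, and -0.03 and 0.16 for Timp2. With centred arrays, Mmp8 (-0.01) and Timp1 (0.00) at day 7 and Mmp2 (0.00) at day 28 changed sign. Without rats 23, 27 and 29, so did Mmp13 at day 28 (0.06) and the interaction of Mmp2 (-0.02), Mmp13 (0.03) and Mmp14 (-0.02). Each of these rats had 1 array high in skeletal muscle genes, and both its arrays were left out. The interaction of Mmp2 also changed sign without rats 21 and 27 (-0.01). Other tests, blocks or subsets of probe sets leave these differences as they are by construction. The cause of the changes in calls below was not tested. Adjusted calls over time in Li+ went to 0 of the 10 genes with the methods' t-test, with all 24 arrays and the rat as a random block, without the arrays high in skeletal muscle genes and without rats 21 and 27, and ranged from 0 to 3 when 1 rat was left out (3 without rat 28). Over all 36495 probe sets, calls in Li+ numbered 102 in the main fit and 23, 128, 10 and 8 in those settings, in that order. Without 1 rat they ran from 3 (without rat 4 or rat 29) to 1019 (without rat 28). With probe sets above the median signal, which leaves out Mmp3, the 1 call was Timp3, among 488 calls over 18247 probe sets. In Ctrl there was 1 call, Mmp12, with probe sets above the median signal, with single-symbol probe sets or with the random block, and 0 to 1 without 1 rat. These settings called 121 of 18247, 105 of 18511 and 263 of 36495 probe sets, against 35 of 36495 in the main fit. Without 1 rat the number ran from 1 (without rat 21, 27 or 29) to 83 (without rat 23). Averaged per rat there were 2 calls with centred arrays or single-symbol probe sets and 5 with the random block. Over all 36495 probe sets, averaged calls numbered 352 in the main fit, 486 with centred arrays and 1773 with the random block. Single-symbol probe sets gave 745 of 18511. There were 0 on average with the methods' t-test, without rats 23, 27 and 29 or without rats 21 and 27 (78, 0 and 19 calls over all probe sets). Without 1 rat there were 0 to 5 (5 without rat 28), while calls over all probe sets ran from 29 (without rat 29) to 1013 (without rat 28). Genes lower in Ctrl at an unadjusted p numbered 2 without rats 21 and 27 (3.37% of all probe sets), and genes higher in Ctrl 0 to 1 without 1 rat (4.09% to 7.58%). Genes higher on average numbered 0 without rats 23, 27 and 29 (5.76% of all probe sets). Between plugs at day 28, 1 gene was higher without the replicate block, with the random block or without rats 21 and 27 (1.055%, 1.773% and 2.321% of all probe sets). Without 1 rat, 1 to 2 were higher (1.981% to 2.63%) and 0 to 1 lower (1.828% to 2.866%). Without the replicate block, which leaves the difference of Mmp12 at 0.53 by construction, its limma unadjusted p was 0.176. The interaction gave 0 genes higher without the replicate block, with the random block or without rats 23, 27 and 29 (1.055%, 1.998% and 1.532% of all probe sets). It gave 2 with the methods' t-test, centred arrays, probe sets above the median or single-symbol probe sets (2.006%, 2.326%, 1.315% and 1.815% of those tested). Without 1 rat it gave 1 to 2 (1.551% to 2.23%). A second probe set per gene could not be tried, as each gene had 1, and no day 7 array was high in muscle genes.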

Other observations

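Further cell type markers also differed over time. With both arrays of a rat averaged, Msr1, a macrophage scavenger receptor, fell by 0.84 (SE 0.16, limma adjusted p = 0.036), while Cd163 differed by 0.28 (limma adjusted p = 0.158). Of the 9 macrophage markers, 8 were lower and 1 higher, 4 and 1 of them at an unadjusted p. All 7 osteoblast markers were lower at day 28 (3 at an unadjusted p, median -0.35) and all 3 endothelial markers (1, median -0.21). All 3 measured B cell markers were higher (3 at an unadjusted p, median 0.42), and so were all 3 erythroid markers (1, median 0.34) and all 7 skeletal muscle markers (3, median 1.003). The skeletal muscle score was high on only 3 of the day 28 arrays. Its group medians were -0.53 in Li+ and -0.55 in Ctrl at day 28, and -0.62 in Li+ and -0.65 in Ctrl at day 7. Of 6 cartilage markers, 3 were higher and 3 lower, 1 and 2 of them at an unadjusted p. After adjustment, 1 macrophage and 1 cartilage marker (Acan) passed in this comparison, and 0 of the other lists. Over all probe sets, 7.87% were lower and 9.24% higher at an unadjusted p, and 0.595% and 0.37% after adjustment.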
